A study of Homo sapiens and Mus musculus with 10 samples.

Results

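Aminoacyl-tRNA synthetases were followed in MOLM-13 and ER-Hoxa9 cells treated with WM-1119, an inhibitor of the histone acetyltransferase KAT6A. The 36 genes were taken by symbol from a list of nuclear genes for these enzymes, and all 36 were present among 27800 human gene symbols and among 24493 mouse gene symbols. By the compartment their products serve, 18 are cytosolic, 16 are mitochondrial and 2, GARS and KARS, serve both. MOLM-13 cells come from a human acute myeloid leukaemia, and their libraries comprised 3 with the solvent DMSO and 3 with 4 µM WM-1119 for 4 days. ER-Hoxa9 cells are mouse myeloid progenitors kept immature by an oestrogen-dependent Hoxa9 fusion protein, and their libraries comprised 2 with DMSO and 2 with 2 µM WM-1119 for 4 days. All ER-Hoxa9 cultures, controls included, contained β-estradiol and stem cell factor. The labels leave unstated whether the replicates were grown separately. A p-value here therefore reflects only how far these libraries scattered, which can be technical. Values were TPM (transcript abundance per library total), a share of each library scaled by transcript length that keeps no read depth.

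Aminoacyl-tRNA synthetases join each amino acid to its matching tRNA, the step that fixes the genetic code during translation. Cytosolic enzymes supply the ribosomes of the cytoplasm, while a separate nuclear-encoded set is imported to charge tRNAs for the mitochondrial ribosome. Several cytosolic enzymes are held in a multisynthetase complex by scaffold proteins, and many cytosolic synthetase genes are activated by ATF4, the transcription factor that the integrated stress response induces when amino acids run short.

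A group of 12 genes (AARS, CARS, EPRS, GARS, IARS, LARS, MARS, NARS, SARS, TARS, WARS and YARS) known as ATF4 targets is called the ATF4-linked synthetases here. ATF4 dimers with C/EBP proteins bind the C/EBP-ATF response element, searched as TGATGNAA on both strands in RefSeq promoter windows of GRCh38.p14 that run from 250 bases before to 50 bases after a start site. RefSeq windows were matched for 30 of the 36 members. The motif occurred in 7 of the 10 matched ATF4-linked synthetases, in 0 of the 6 other matched cytosolic or dual members, and in 1 of the 14 matched mitochondrial members, YARS2. Of all 15843 genes with a window, 3.60% held it. A match describes these letters only, not binding. All 7 ATF4-linked genes with a match had negative log2 fold changes in MOLM-13. In 6 of these matches, all but that of NARS, the motif lies in its reverse-strand form. Stretches around these 6 are shown as examples of where the motif lies, with the motif in capitals. They lie at chr16:70289640-70289739 (AARS), chr11:3057394-3057471 (CARS) and chr9:92293668-92293756 (IARS) on the minus strand, and at chr7:30594799-30594898 (GARS), chr12:57488018-57488097 (MARS) and chr5:33440921-33440994 (TARS) on the plus strand.
AARS: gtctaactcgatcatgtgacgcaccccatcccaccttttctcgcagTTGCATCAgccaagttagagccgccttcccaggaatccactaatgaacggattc
CARS: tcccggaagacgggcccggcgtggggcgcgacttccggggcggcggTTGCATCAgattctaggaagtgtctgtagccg
GARS: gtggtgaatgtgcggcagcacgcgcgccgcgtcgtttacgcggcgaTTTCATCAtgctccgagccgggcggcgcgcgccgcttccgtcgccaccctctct
IARS: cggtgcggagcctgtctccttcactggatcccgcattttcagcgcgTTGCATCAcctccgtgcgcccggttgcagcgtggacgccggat
MARS: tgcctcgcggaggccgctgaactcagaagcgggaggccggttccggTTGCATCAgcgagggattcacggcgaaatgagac
TARS: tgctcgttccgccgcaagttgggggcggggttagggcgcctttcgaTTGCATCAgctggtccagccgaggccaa
With the start site as position 0, the motif began at -187 in AARS, -33 in GARS, -13 in IARS, -4 in MARS, -2 in CARS, 2 in TARS and 14 in NARS. It therefore lay within 33 bases of the start site in 6 of the 7 ATF4-linked genes with a match. In the mitochondrial member YARS2 it began at -197.

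HARS and HARS2, the cytosolic and mitochondrial histidyl-tRNA synthetases, start back to back on human chromosome 5. Their RefSeq start sites are 85 bases apart. The 84 bases between the start sites (GRCh38.p14, chr5:140691371-140691454, plus strand, 59.5% G or C) are shown as the stretch that both genes share.
HARS-HARS2: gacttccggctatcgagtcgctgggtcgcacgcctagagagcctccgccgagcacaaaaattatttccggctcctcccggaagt

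Cytosolic synthetases were more abundant than mitochondrial synthetases in MOLM-13. The median of the mean DMSO levels was 89.9 TPM for cytosolic and 15.8 TPM for mitochondrial members. FARSA, the catalytic subunit of phenylalanyl-tRNA synthetase, was the most abundant member at 237.9, 145.1 and 159.6 TPM with DMSO and 205.5, 147.1 and 151.2 TPM with WM-1119. QARS, the glutaminyl enzyme of the multisynthetase complex, followed at 169.3, 163.2 and 120.3 TPM with DMSO and 183.8, 170.02 and 125.4 TPM with WM-1119. The lysyl enzyme KARS, whose gene serves both compartments, had 182.8, 139.6 and 115.1 TPM with DMSO and 178.02, 141.8 and 118.1 TPM with WM-1119. The groups overlapped for all 3 genes, and their order by level did not exceed the spread between libraries. At the other end stood 3 mitochondrial enzymes. PARS2, the mitochondrial prolyl enzyme, was lowest at 5.56, 3.22 and 4.33 TPM with DMSO and 4.01, 3.34 and 3.36 TPM with WM-1119. WARS2, the mitochondrial tryptophanyl enzyme, had 8.72, 8.58 and 5.80 TPM with DMSO and 9.20, 7.18 and 5.98 TPM with WM-1119. NARS2, the mitochondrial asparaginyl enzyme, had 14.9, 9.18 and 12.3 TPM with DMSO and 15.0, 9.11 and 11.4 TPM with WM-1119. The groups overlapped for these genes too.

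**Figure D1:**
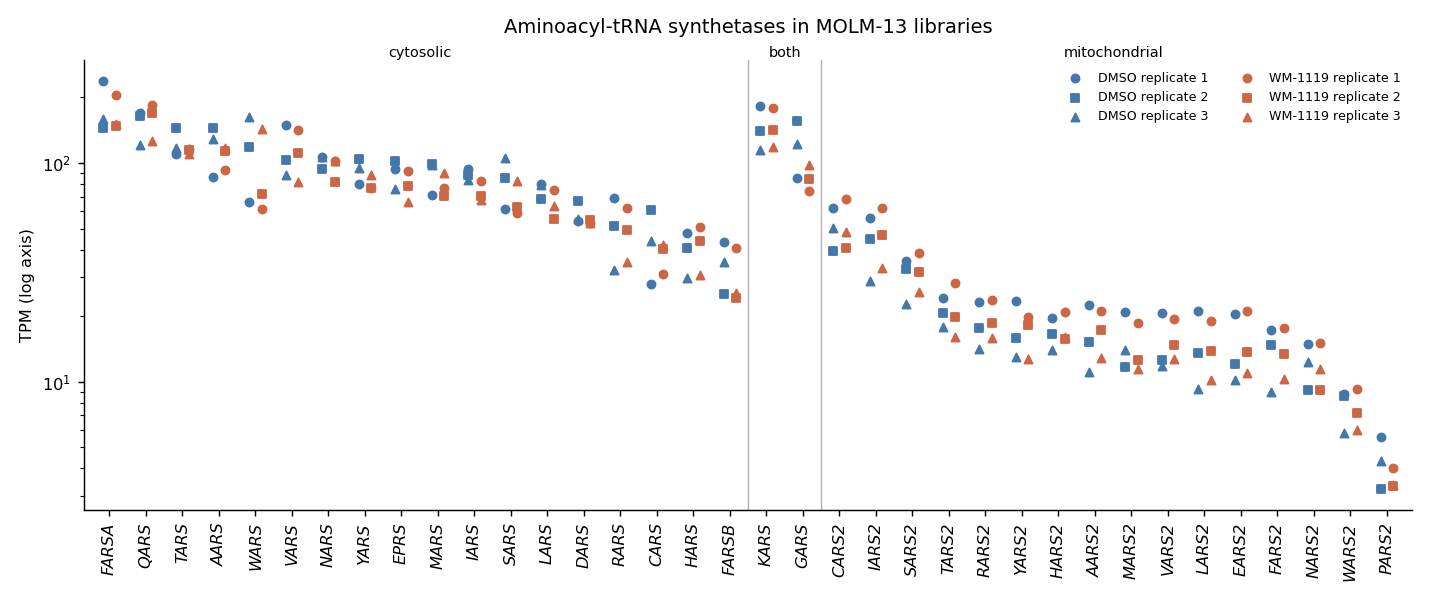
TPM on a log axis of the 36 synthetases in each MOLM-13 library, by compartment and ordered by mean DMSO level, with blue for DMSO, orange for WM-1119 and a symbol for each replicate number. Replicate 1 (circles) is the highest library of both groups in all 16 mitochondrial members, and the scaling factor over all genes is also highest in replicate 1.

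The mitochondrial members of MOLM-13 differed more by replicate number than by treatment. In 16 of 16 the replicate 1 library was the highest in both groups, and in 11 of 16 the replicate 3 library was the lowest in both. The share of all genes with that order was not counted, so whether the order is particular to these members is unknown. Library scaling factors, medians of ratios over all genes, ran the same way. They were 1.09, 0.98 and 0.87 for DMSO replicates 1, 2 and 3 and 1.14, 1.00 and 0.95 for WM-1119. Summed over the 16 genes, the level was 395.3, 287.9 and 248.2 TPM in DMSO replicates 1, 2 and 3 and 406.3, 296.3 and 256.7 TPM in the WM-1119 replicates of the same numbers. AARS, CARS, SARS and WARS, all ATF4-linked, had the opposite order, with both replicate 1 libraries below the other 4. Same-numbered libraries deviated together across all genes, so the differences within pairs of the same number are given beside the group means.

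No member passed the test in MOLM-13. With limma on log2(TPM + 1) and Benjamini-Hochberg adjustment over the 12436 genes that averaged 1 TPM or more, which include all 36 members, 0 members had an adjusted p under 0.05, and 0 had an unadjusted p under 0.05, against 2.08% of tested genes higher and 0.965% lower at that unadjusted threshold. The adjusted background was as low, with 0% of tested genes called higher and 0.00804% called lower. With the replicate number as a block, again 0 members and 0% of genes passed the adjusted threshold. At an unadjusted p under 0.05 with the block, 4 members were lower with WM-1119 (GARS, IARS, LARS and SARS) against 4.91% of all genes, and 0 members were higher against 13.2% of all genes. The lowest member adjusted p with the block was 0.176, for IARS.

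Cytosolic members had mostly negative log2 fold changes in MOLM-13. The sign was negative for 16 of 18 cytosolic members and for 5 of 16 mitochondrial members, against 38.5% of all tested genes. The median log2 fold change was -0.14 over cytosolic members, 0.04 over mitochondrial members and 0.05 over all tested genes. Under median-of-ratios scaling, where the median of all genes was -0.01 and 52.5% of genes were negative, the cytosolic count was also 16 of 18 but the mitochondrial count was 9 of 16, with a median of -0.03, and with ribosomal protein genes removed the mitochondrial median was -0.02. The mitochondrial median also changed sign with single libraries, to -0.15 without WM-1119 replicate 1 and -0.12 without DMSO replicate 3. The median of all genes changed sign with the same libraries, to -0.03 and -0.04, whereas the cytosolic median was negative without any 1 library. Within same-numbered pairs, 10 members were lower in all 3 pairs, against 14.4% of tested genes, and 5 were higher in all 3, against 28.6%. The former were DARS, EPRS, FARSB, GARS, IARS, LARS, NARS, SARS, WARS and YARS, and the latter were HARS, QARS, EARS2, IARS2 and RARS2.

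The negative values were most regular among the ATF4-linked synthetases. All 12 had a negative log2 fold change, against 38.5% of all tested genes, with a median of -0.19 and a range from -0.46 to -0.10. The value was negative in 5 of the 8 other cytosolic or dual members, with a median of -0.02. The list was chosen with earlier results of these data known, so these counts are descriptions only. The count of 12 held under each rescaling of the values, and was 10 without DMSO replicate 2 and 11 without WM-1119 replicate 2. All 12 were lower with WM-1119 in the replicate 2 pair and in the replicate 3 pair, and 8 of 12 in the replicate 1 pair. The median difference within pairs was -0.05, -0.40 and -0.16 on the log2 scale for replicates 1, 2 and 3, so it differed widely between pairs. Among the 8 other cytosolic or dual members it was -0.05, 0.02 and -0.01. The 7 ATF4-linked genes with the response element in their window and the 3 matched ones without it (EPRS, SARS and WARS) all had negative values.

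**Figure D2:**
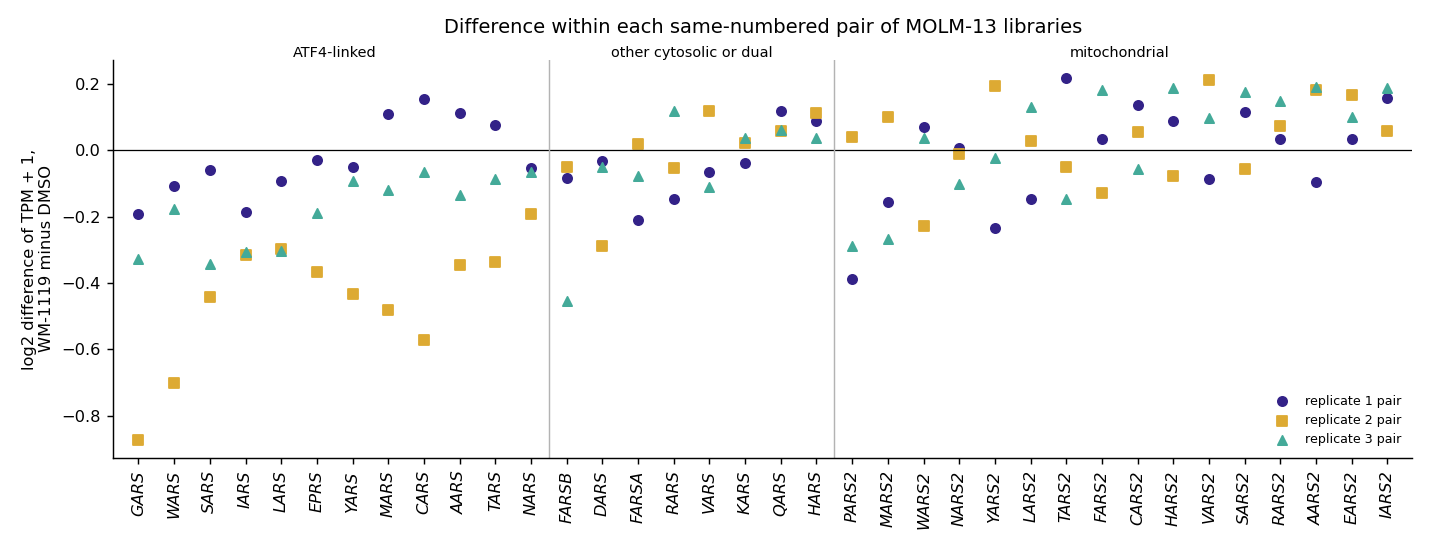
Difference of log2(TPM + 1), WM-1119 minus DMSO, within each same-numbered pair of MOLM-13 libraries for the 36 synthetases, in 3 classes separated by grey lines. All 12 ATF4-linked members lie below 0 in the replicate 2 and replicate 3 pairs, and 8 of them in the replicate 1 pair.

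GARS, the glycyl enzyme used in both compartments, had the largest negative value in MOLM-13. It was at 85.0, 155.5 and 122.6 TPM with DMSO and 74.2, 84.5 and 97.6 TPM with WM-1119. The groups overlapped because DMSO replicate 1 was low, although each WM-1119 library lay below the DMSO library of its number. The log2 fold change was -0.46 (SE 0.26, n = 3 per group, limma adjusted p = 1.00). The tryptophanyl enzyme WARS, which interferon also induces, had 66.6, 118.2 and 162.5 TPM with DMSO and 61.7, 72.3 and 143.6 TPM with WM-1119. Replicate 1 was lowest and replicate 3 highest in both groups, and the log2 fold change was -0.33 (SE 0.42, limma adjusted p = 1.00). SARS, the seryl enzyme that also charges selenocysteine tRNA, had 61.6, 85.7 and 105.1 TPM with DMSO and 59.1, 62.8 and 82.7 TPM with WM-1119, a log2 fold change of -0.28 (SE 0.25). Here too the groups overlapped. IARS, the isoleucyl enzyme of the multisynthetase complex, had 94.2, 87.8 and 83.8 TPM with DMSO and 82.6, 70.4 and 67.5 TPM with WM-1119. It was the only member in MOLM-13 whose groups did not overlap, 1 of 36 lower against 2.43% of tested genes and 0 of 36 higher against 4.54%. The log2 fold change of IARS was -0.27 (SE 0.17, limma adjusted p = 1.00 without and 0.176 with the replicate block).

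Positive values in MOLM-13 were small. IARS2, the mitochondrial isoleucyl enzyme, had 55.8, 44.7 and 28.9 TPM with DMSO and 62.3, 46.6 and 33.1 TPM with WM-1119. EARS2, the mitochondrial glutamyl enzyme, had 20.4, 12.1 and 10.1 TPM with DMSO and 20.9, 13.7 and 10.9 TPM with WM-1119. Each WM-1119 library of these genes lay just above the DMSO library of its number, with log2 fold changes of 0.13 (SE 0.32) and 0.10 (SE 0.32). AARS2, the mitochondrial alanyl enzyme, had 22.5, 15.1 and 11.1 TPM with DMSO and 21.0, 17.3 and 12.8 TPM with WM-1119. RARS2, the mitochondrial arginyl enzyme, had 23.01, 17.5 and 14.1 TPM with DMSO and 23.6, 18.5 and 15.8 TPM with WM-1119. The log2 fold change was 0.09 for both AARS2 (SE 0.29) and RARS2 (SE 0.24), and all 4 genes had overlapping groups.

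On deposited TPM in MOLM-13 the cytosolic enzyme had a negative and the mitochondrial enzyme a positive value for isoleucine and for most other amino acids compared. The exceptions were histidine, methionine, asparagine, tryptophan, tyrosine and proline, whose enzymes had values of the same sign. Under median-of-ratios scaling CARS2, FARS2, LARS2 and TARS2 were negative too, at -0.02, -0.04, -0.06 and -0.06. Fewer amino acids thus had opposite signs on that scale. IARS had -0.27 and IARS2 0.13 on the log2 scale, and the ratio of IARS to IARS2 in TPM was 1.69, 1.96 and 2.90 with DMSO and 1.33, 1.51 and 2.04 with WM-1119, lower in each pair. The ratios of RARS to RARS2, SARS to SARS2, WARS to WARS2 and EPRS to EARS2 were also lower in each pair, and the remaining ratios were not. The ratio of WARS to WARS2 in TPM was 7.63, 13.8 and 28.03 with DMSO and 6.71, 10.1 and 24.02 with WM-1119. That ratio differed by replicate number more than by treatment. HARS and HARS2 were alike in direction, as HARS had 48.0, 40.7 and 29.8 TPM with DMSO and 51.1, 44.1 and 30.6 TPM with WM-1119, and HARS2 had 19.6, 16.6 and 13.9 TPM against 20.9, 15.7 and 15.99 TPM. Their log2 fold changes were 0.08 (SE 0.26) and 0.07 (SE 0.20), and 0.01 and 0.00 under median-of-ratios scaling. For CARS and CARS2, the cysteinyl enzymes, the ratio was below 1 in 5 of the 6 MOLM-13 libraries and ranged from 0.447 to 1.54. In the 15 other ratios of enzymes for the same amino acid, the cytosolic member exceeded the mitochondrial member in every MOLM-13 library.

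Summed over its genes, the cytosolic class had 1648, 1702 and 1616 TPM with DMSO and 1605, 1437 and 1477 TPM with WM-1119 in MOLM-13. The ratio of the cytosolic to the mitochondrial sum was 4.17, 5.91 and 6.51 with DMSO and 3.95, 4.85 and 5.75 with WM-1119. The ratio was lower with WM-1119 in each same-numbered pair, while the groups overlapped. The ATF4-linked sum was 961.7, 1262 and 1218 TPM with DMSO and 940.4, 920.4 and 1072 TPM with WM-1119, and the sum of the other cytosolic and dual members was 953.6, 734.6 and 635.6 TPM against 916.9, 742.8 and 620.8 TPM. Replicate 1 thus had the lowest ATF4-linked sum with DMSO and the highest sum of the other members in both groups.

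**Figure D3:**
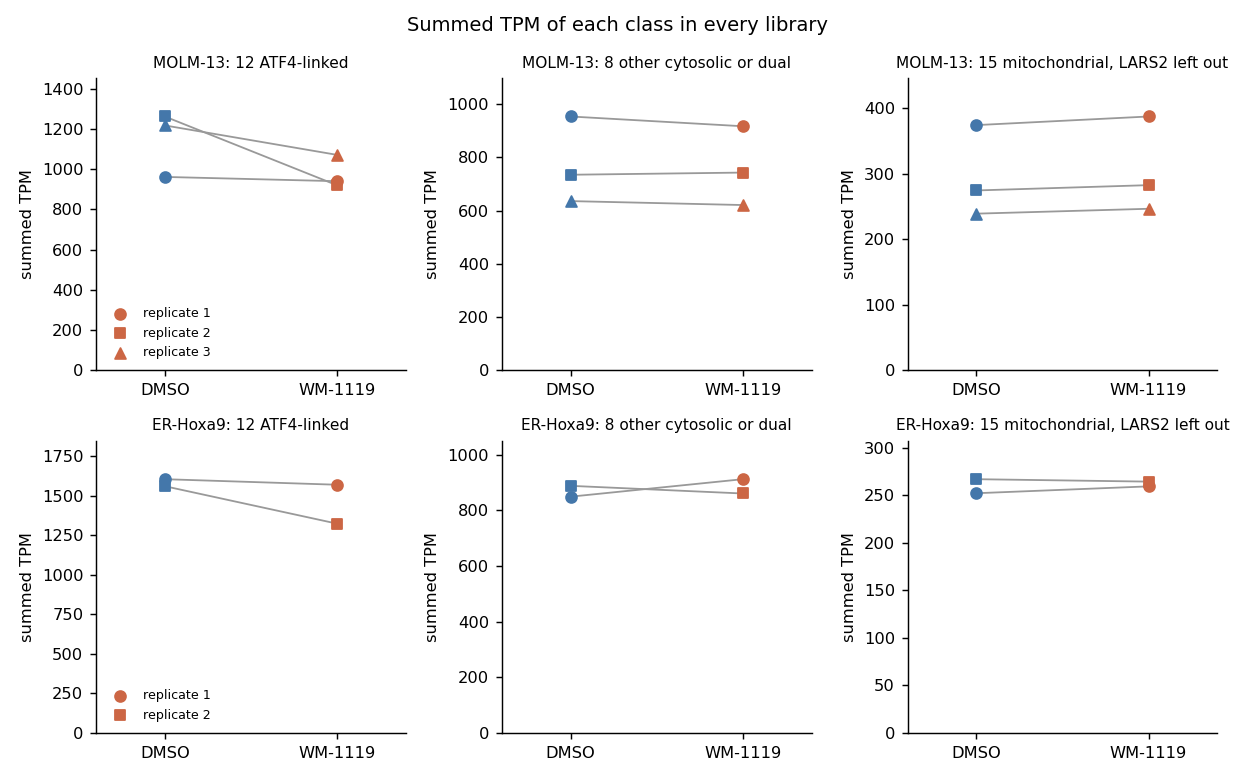
Summed TPM in every library of the ATF4-linked, the other cytosolic or dual, and the mitochondrial members without LARS2, in MOLM-13 (top) and ER-Hoxa9 (bottom), with grey lines joining libraries of the same number. In MOLM-13 the ATF4-linked sum is lower with WM-1119 on each line, while the other sums differ mainly by replicate number.

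Levels in ER-Hoxa9 correlated with those of MOLM-13 across the members, and Lars2 stood furthest apart. Across the 36 members, log2 mean DMSO levels of the lines had a Pearson r of 0.74 and a Spearman rho of 0.78. Over the 35 members without LARS2 r was 0.90, given as a description across genes. These values span both classes, with ER-Hoxa9 medians of 106.1 TPM for cytosolic and 14.5 TPM for mitochondrial members. Other members also changed rank by mean DMSO level between MOLM-13 and ER-Hoxa9, such as FARSA (1 and 12) and NARS (9 and 2). Lars2, the mitochondrial leucyl enzyme, was listed at 793.4 and 1231 TPM with DMSO and 757.0 and 1133 TPM with WM-1119. The 2 libraries numbered 2 were high and the groups overlapped. These values made up 74.5% to 82.2% of the summed mitochondrial TPM of a library. They moved with the microRNA entry Mir6236, which was listed at 72300 and 107205 TPM with DMSO and 74757 and 102891 TPM with WM-1119, and Lars2 was 1.01% to 1.15% of it in every library. The part of Mir6236 in the Lars2 values was not tested. LARS2 in MOLM-13 was at 9.23 to 21.1 TPM.

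Among the remaining ER-Hoxa9 members, Nars and Gars were the most abundant. Nars, the cytosolic asparaginyl enzyme, had 283.5 and 267.6 TPM with DMSO and 247.7 and 217.7 TPM with WM-1119. Gars had 184.4 and 181.4 TPM with DMSO and 178.3 and 160.1 TPM with WM-1119. Both genes had non-overlapping groups, lower with WM-1119. Kars had 174.5 and 175.8 TPM with DMSO and 179.5 and 174.8 TPM with WM-1119, a narrow spread in which the groups overlapped. The lowest members were Ears2, at 4.59 and 3.51 TPM with DMSO and 3.90 and 3.30 TPM with WM-1119, and Wars2, at 5.33 and 4.93 TPM against 4.91 and 4.78 TPM. The groups overlapped for Ears2 and did not for Wars2.

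**Figure D4:**
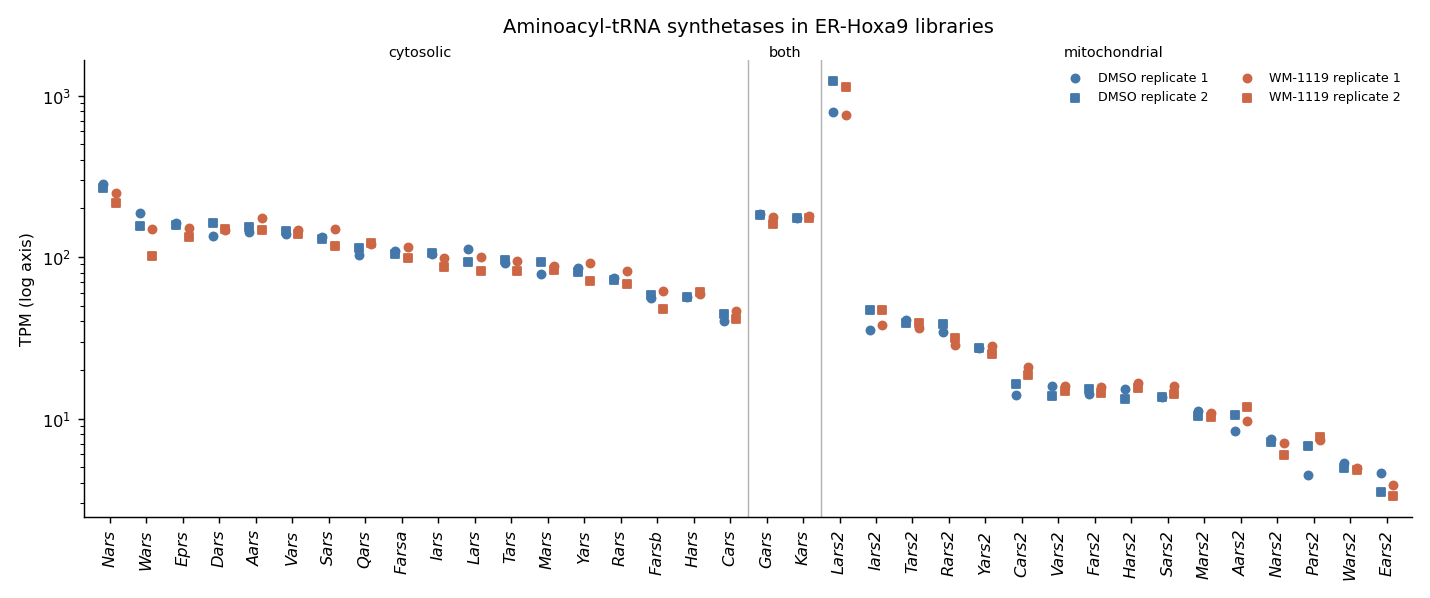
TPM on a log axis of the 36 synthetases in each ER-Hoxa9 library, by compartment and ordered by mean DMSO level, with blue for DMSO, orange for WM-1119 and a symbol for each replicate number. Lars2, at 757.0 to 1231 TPM, lies far above the other mitochondrial members.

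No member passed the test in ER-Hoxa9 either. All 36 were among the 11362 genes tested, 0 had a limma adjusted p under 0.05 (lowest 0.391), and 1, Cars2 (higher), had an unadjusted p under 0.05. Of all tested genes, 11.6% were higher and 1.13% lower at that unadjusted threshold, and 0.0176% were called higher and 0.0176% lower at the adjusted one. Under median-of-ratios scaling 6 members were lower and 0 higher at an unadjusted p under 0.05, against 3.99% of genes lower and 6.13% higher, and again 0 passed the adjusted threshold. Groups did not overlap for 6 members that were higher with WM-1119 (Hars, Qars, Cars2, Hars2, Pars2 and Sars2), against 40.3% of all tested genes. They did not overlap for 8 members that were lower (Eprs, Gars, Iars, Nars, Wars, Nars2, Rars2 and Wars2), against 7.94% of all tested genes.

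Directions in ER-Hoxa9 depended on the scale. The median log2 fold change of all tested genes was 0.12 on TPM as deposited and -0.01 after median-of-ratios scaling. On deposited TPM, 10 of 18 cytosolic members and 8 of 16 mitochondrial members had a negative log2 fold change, against 28.1% of tested genes, with medians of -0.00 and -0.01. Relative to the median of all genes, 17 of 18 cytosolic and 11 of 16 mitochondrial members lay below, and the same numbers were negative under median-of-ratios scaling, against 52.6% of genes, with medians of -0.15 and -0.14. Single libraries also mattered, as the cytosolic median was -0.13 without WM-1119 replicate 1 and 0.06 without WM-1119 replicate 2. Of the 12 ATF4-linked synthetases, 9 had a negative log2 fold change on deposited TPM (median -0.10) and 12 of 12 lay below the median of all genes and were negative under median-of-ratios scaling. The number negative on deposited TPM was 6 without WM-1119 replicate 2 and 12 without WM-1119 replicate 1. Of the 8 other cytosolic or dual members, 2 were negative on deposited TPM and 7 under median-of-ratios scaling.

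Wars had the largest negative value in ER-Hoxa9, with 187.7 and 156.5 TPM with DMSO and 149.6 and 101.6 TPM with WM-1119. Both WM-1119 libraries lay below both DMSO libraries, the log2 fold change was -0.47 (SE 0.22, n = 2 per group, limma adjusted p = 0.430), and the ratio of Wars to Wars2 was 35.2 and 31.7 with DMSO and 30.4 and 21.3 with WM-1119. Rars2 followed with 34.3 and 38.5 TPM with DMSO and 28.7 and 31.6 TPM with WM-1119, a log2 fold change of -0.26 (SE 0.12, limma adjusted p = 0.439). For Nars, whose libraries are given above, the log2 fold change was -0.25 (SE 0.12, limma adjusted p = 0.444). Lars, the cytosolic leucyl enzyme of the multisynthetase complex, had 112.9 and 93.4 TPM with DMSO and 99.8 and 82.1 TPM with WM-1119. Its groups overlapped, and the log2 fold change was -0.18 (SE 0.16).

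The largest positive values in ER-Hoxa9 belonged to mitochondrial enzymes of low level. Pars2 had 4.46 and 6.80 TPM with DMSO and 7.32 and 7.71 TPM with WM-1119, a log2 fold change of 0.38 (SE 0.21, limma adjusted p = 0.488). Cars2, the mitochondrial cysteinyl enzyme, had 14.1 and 16.5 TPM with DMSO and 21.01 and 18.7 TPM with WM-1119, a log2 fold change of 0.36 (SE 0.14, limma adjusted p = 0.391). For both genes the WM-1119 libraries lay above the DMSO libraries. Aars2 had 8.38 and 10.5 TPM with DMSO and 9.63 and 11.8 TPM with WM-1119, with overlapping groups and a log2 fold change of 0.17 (SE 0.17). Hars2 had 15.2 and 13.2 TPM with DMSO and 16.5 and 15.4 TPM with WM-1119, and its neighbour Hars had 56.8 and 56.4 TPM against 59.4 and 61.05 TPM. Groups did not overlap for Hars or Hars2, with log2 fold changes of 0.09 (SE 0.10) and 0.17 (SE 0.13). Under median-of-ratios scaling these values were -0.06 for Hars and 0.03 for Hars2.

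**Figure D5:**
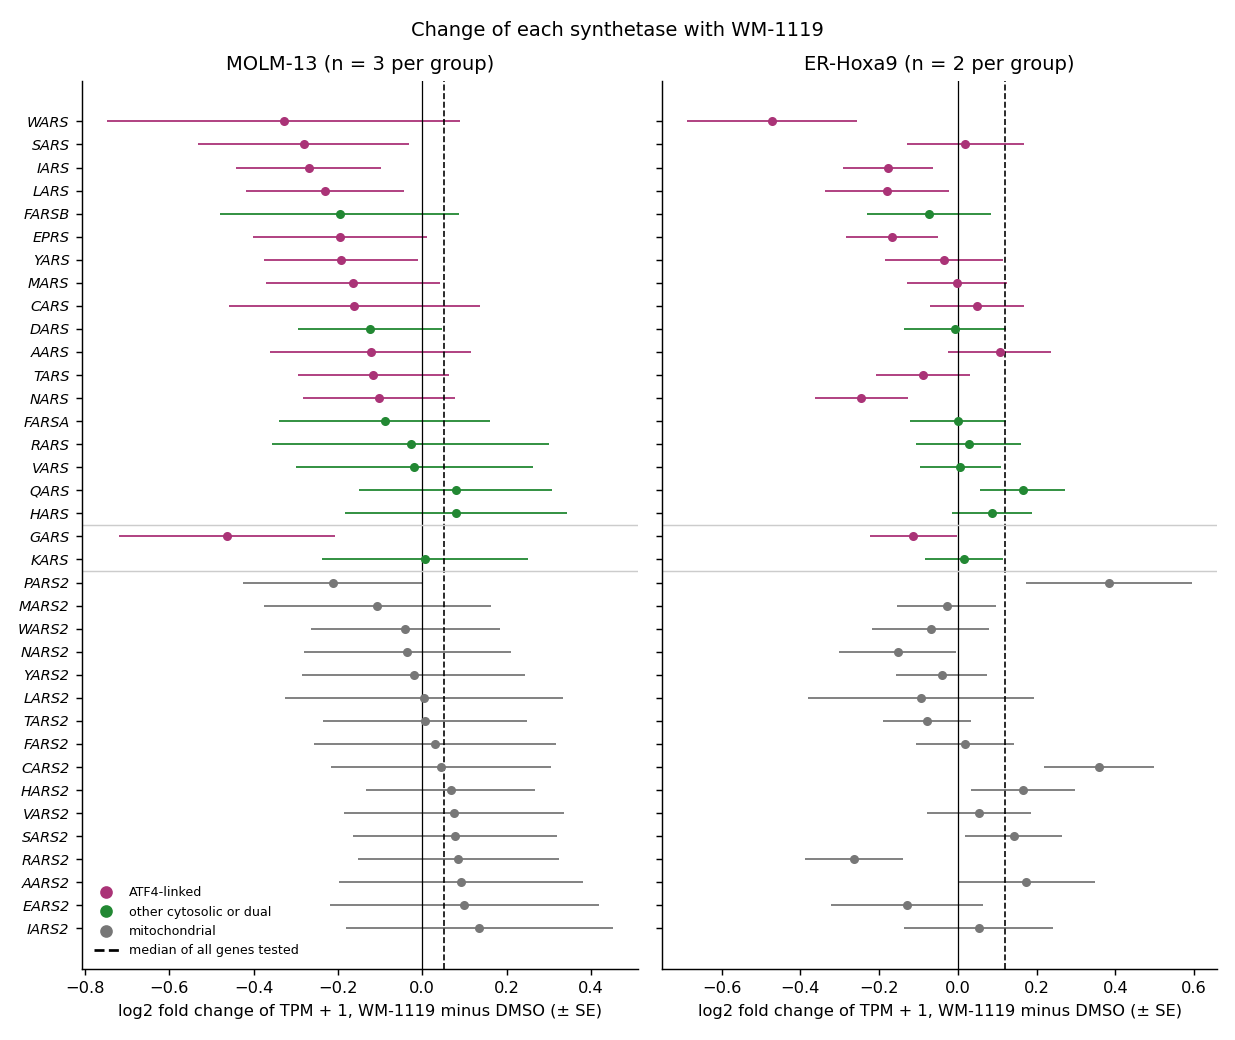
Log2 fold change of TPM + 1, WM-1119 minus DMSO, with SE bars from limma, for each synthetase in MOLM-13 (left) and ER-Hoxa9 (right), with members in the same order and the median of all tested genes dashed. The 12 ATF4-linked members lie below 0 in MOLM-13 and below the dashed line at 0.12 in ER-Hoxa9, and no member passed the test.

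Summed levels in ER-Hoxa9 were 2096 and 2092 TPM with DMSO and 2124 and 1850 TPM with WM-1119 for the cytosolic class. The ratio of the cytosolic to the mitochondrial sum was 2.00 and 1.40 with DMSO and 2.09 and 1.32 with WM-1119, and without Lars2 it was 8.31 and 7.83 against 8.19 and 6.99. The libraries numbered 2 were thus lower in both groups. The ATF4-linked sum was 1605 and 1561 TPM with DMSO and 1570 and 1324 TPM with WM-1119, and its ratio to the sum of the other cytosolic and dual members was 1.89 and 1.76 against 1.72 and 1.54. That ratio did not overlap between the groups in ER-Hoxa9, which had only 2 libraries per group. Of single genes there, 40.3% did not overlap and were higher, and 7.94% did not overlap and were lower. In MOLM-13 the same ratio was 1.01, 1.72 and 1.92 with DMSO and 1.03, 1.24 and 1.73 with WM-1119, and the groups overlapped.

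EPRS, GARS, IARS, NARS and WARS were lower in every MOLM-13 pair and had lower, non-overlapping groups in ER-Hoxa9. These are 5 of the 36 members and include 0 mitochondrial ones, against 2.09% of the 8726 symbols tested in both lines. Of the 36 members, 15 had a negative log2 fold change in both lines on deposited TPM and 10 a positive one, against 13.3% and 50.5% of those symbols. Across the 20 cytosolic and dual members the log2 fold changes of the lines had a Pearson r of 0.60 and a Spearman rho of 0.62, and across the 16 mitochondrial members -0.21 and 0.04. These are descriptions across genes that share libraries within each line. The members not given by library had log2 fold changes between -0.23 (LARS) and 0.08 (SARS2) in MOLM-13, where they include the cytosolic DARS, RARS, TARS, VARS and YARS and the mitochondrial FARS2, MARS2, SARS2, TARS2, VARS2 and YARS2. In ER-Hoxa9 such members lay between -0.18 (Iars) and 0.16 (Qars).

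No gene that works beside the synthetases passed the adjusted threshold in either line. Of 20 genes for cytosolic partners (tRNA export, processing, proofreading, selenocysteine synthesis and scaffolds), 12 had a negative log2 fold change in MOLM-13 (median -0.01) and 9 in ER-Hoxa9 (median 0.05). With limma, 0 of them had an adjusted p under 0.05 and 0 an unadjusted p under 0.05 in either line. With the replicate block 1 of the 20, XPOT, which exports tRNA from the nucleus, was lower at an unadjusted p under 0.05 in MOLM-13. That is near the 4.91% of all genes lower at this threshold. The log2 fold change of XPOT was -0.24, lower in all 3 pairs, as for 14.4% of tested genes, with groups that did not overlap, as for 2.43%. The 3 most abundant in MOLM-13 were SSB, the La protein that binds new tRNA, with a log2 fold change of -0.11 (SE 0.23), SEPHS2, which makes selenophosphate, with -0.12 (SE 0.22), and EEF1E1, a complex scaffold, with -0.00 (SE 0.23). In ER-Hoxa9 they were Aimp1, another scaffold, with -0.07 (SE 0.11), Sephs2 with 0.10 (SE 0.12) and Rtcb, the tRNA ligase, with -0.01 (SE 0.11). The third scaffold gene, AIMP2, had 0.23 (SE 0.28) in MOLM-13 and 0.30 (SE 0.15) in ER-Hoxa9. The scaffolds had negative values in 2 of 3 genes in each line, but in MOLM-13 these were near 0, at -0.002 for AIMP1 (SE 0.22) and -0.001 for EEF1E1. Of the 8 synthetases of the complex, 6 were negative in MOLM-13 and 5 in ER-Hoxa9, against 38.5% and 28.1% of all tested genes.

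For mitochondrial partners (tRNA modification, amidation and translation factors), 10 of 19 had a negative log2 fold change in each line, with medians of -0.01 in MOLM-13 and -0.01 in ER-Hoxa9. Of all tested genes, 38.5% in MOLM-13 and 28.1% in ER-Hoxa9 had negative values. With limma 0 of the 19 had an adjusted p under 0.05. An unadjusted p under 0.05 was reached by 0 in MOLM-13 and by 1, Trmu (lower), in ER-Hoxa9, against 1.13% of tested genes lower there. With the replicate block an unadjusted p under 0.05 was reached in MOLM-13 by 1 of the 19, MTO1, which modifies mitochondrial tRNA. That is near the 4.91% of all genes lower at this threshold. The log2 fold change of MTO1 was -0.40, lower in all 3 pairs, as for 14.4% of tested genes, with groups that did not overlap, as for 2.43%. The most abundant were TUFM, the mitochondrial elongation factor that delivers charged tRNA (-0.14, SE 0.26), HSD17B10, a subunit of mitochondrial RNase P (0.16, SE 0.24), and PUS1, a pseudouridine synthase (-0.23, SE 0.27), in MOLM-13. The same genes led in ER-Hoxa9, with Hsd17b10 at -0.09 (SE 0.12), Tufm at 0.04 (SE 0.12) and Pus1 at -0.07 (SE 0.14), all as log2 fold changes. Under median-of-ratios scaling the medians were -0.08 and -0.14, and those of the cytosolic partners -0.08 and -0.09.

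Other genes of the ATF4 response were spread by replicate number in MOLM-13, as were several of the ATF4-linked synthetases. The 22 genes summed to 1084, 2225 and 2110 TPM with DMSO and 1078, 1361 and 1896 TPM with WM-1119, low in both replicate 1 libraries. Of the 22, 19 had a negative log2 fold change, against 38.5% of all tested genes, with a median of -0.33. With limma 0 of the 22 had an adjusted or an unadjusted p under 0.05. With the replicate block 5 had an unadjusted p under 0.05, all lower (DDIT4, VLDLR, SLC7A5, SESN2 and STC2), against the 4.91% of all genes given above, and 0 were higher, against 13.2%. None of the 5 passed the adjusted threshold with the block. ATF4 itself had 310.6, 590.8 and 448.6 TPM with DMSO and 337.8, 417.3 and 433.9 TPM with WM-1119. SHMT2 and MTHFD2, enzymes of mitochondrial folate metabolism, had log2 fold changes of -0.20 (SE 0.21) and -0.28 (SE 0.27). In ER-Hoxa9, 14 of 20 tested genes of the list were negative (median -0.07), against 28.1% of all tested genes. With limma 0 of the 20 had an adjusted p under 0.05. An unadjusted p under 0.05 was reached by 2, the amino acid transporter subunits Slc3a2 and Slc7a5. Both were lower, as were 1.13% of all tested genes at that threshold. The most abundant there were Psat1, of serine synthesis, with -0.03 (SE 0.14), Ddit3, the stress factor CHOP, with -0.36 (SE 0.16), and Shmt2 with 0.13 (SE 0.21), as log2 fold changes. The sum was 3806 and 3808 TPM with DMSO and 4011 and 3448 TPM with WM-1119.

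Interferon-response genes, to which WARS is also linked, had a negative log2 fold change in 3 of 10 tested genes in MOLM-13 (median 0.11) and in 1 of 6 in ER-Hoxa9 (median 0.35). Of all tested genes, 38.5% in MOLM-13 and 28.1% in ER-Hoxa9 were negative. With limma 0 interferon-response genes had an adjusted p under 0.05 in either line, and 1 in each had an unadjusted p under 0.05. These were MX1 in MOLM-13, lower as for 0.965% of tested genes, and Isg15 in ER-Hoxa9, higher as for 11.6%. With the block in MOLM-13, PSMB9 and OAS1 were higher (against 13.2% of genes) and MX1 lower (against 4.91%) at an unadjusted p under 0.05. Among the most abundant in MOLM-13 were ISG15 (-0.05, SE 0.23) and PSMB9 (0.58, SE 0.29). In ER-Hoxa9 they were Psmb9 (0.16, SE 0.11), Tap1 (-0.05, SE 0.16) and Irf1 (0.51, SE 0.21), all as log2 fold changes.

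Both lines carried myeloid genes, with SPI1 at 248.002 to 319.7 TPM in MOLM-13 and 85.6 to 148.6 TPM in ER-Hoxa9. PTPRC, CEBPA, FLT3 and CD33 were also present in both lines, while the other myeloid identity genes listed, KIT and MPO, differed between them. KIT was at 0.0985 to 0.435 TPM in MOLM-13 and 204.9 to 302.5 TPM in ER-Hoxa9. MPO was at 10.6 to 55.1 TPM in MOLM-13 and 385.4 to 1512 TPM in ER-Hoxa9. The 8 monocyte and macrophage markers summed to 693.1 to 2060 TPM with DMSO and 2227 to 3427 TPM with WM-1119 in MOLM-13, most of it LYZ. All 6 tested markers of that list had positive log2 fold changes, and MRC1 was at or near 0. In ER-Hoxa9, where 6 of the 8 were in the table, the sum was 2.62 to 6.29 TPM and 11.6 to 15.7 TPM. The 2 tested markers were positive, and Csf1r, Ctss, Cybb and Mrc1 were below 1 TPM in every library. The 8 neutrophil maturation markers summed to 241.0 and 172.2 TPM with DMSO and 336.1 and 142.8 TPM with WM-1119 in ER-Hoxa9, most of it Lcn2. In MOLM-13 they summed to 11.2 to 36.7 TPM with DMSO and 31.4 to 70.8 TPM with WM-1119. The groups overlapped for that sum in both lines. The part of maturation in the synthetase values was not tested, and in bulk RNA fewer cells of a type and less RNA per cell cannot be told apart. Ribosomal protein genes held 25.7% to 39.8% of a MOLM-13 library and 27.7% to 34.0% of an ER-Hoxa9 library, and the haemoglobin gene HBB was at 52.1 and 49.4 TPM in the MOLM-13 replicate 3 libraries but at or near 0 in the other 4. Without the replicate 3 pair, the cytosolic median with the replicate block was -0.15.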

How the data were processed

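RNA from 10 libraries was sequenced. Per the submitters' processing notes, the authors estimated TPM with Salmon, with hg38 and mm10 as builds, and deposited 1 table per line. Version and annotation: not given in the sources used here. TPM keep no depth, so no counting error is given. Groups came from the labels. Mouse columns were matched to ER-Hoxa9 as the only mouse line. The members and lists were chosen with earlier results of these data known.

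Per line, genes averaging 1 TPM or more were fitted on log2(TPM + 1) in R 4.3.3 with limma 3.58.1 (eBayes with trend), two-sided, Benjamini-Hochberg adjusted over all genes, called under 0.05. The fit was tested on simulated data. In MOLM-13, deviations of same-numbered libraries correlated at 0.52, 0.44 and 0.61 across genes, although no label explains the numbering. Same-numbered samples were therefore treated as pairs for differences within pairs and in the fit with the replicate number as a block. Unless the block is named, SE and p-values come from the fit without it. Values by library are given for the 4 largest changes per direction, the 3 highest and 3 lowest members of each line, GARS, KARS, HARS, HARS2, WARS and WARS2. Lists are given by counts and their 3 most abundant genes, and others named were chosen after their values were seen. A gene that this rule takes is not reported here. Promoter sequences are from RefSeq (GRCh38.p14). Alternatives were pseudocounts, filters, rescaling, the block and leaving out libraries. Figures used matplotlib 3.10.9 in Python 3.11.15.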

Additional observations from a re-analysis of the deposited data

Results flagged for a closer look

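RARS2, the mitochondrial arginyl-tRNA synthetase, stood on opposite sides in the lines. Its log2 fold change was 0.086 in MOLM-13, where each WM-1119 library lay above the DMSO library of the same number while the groups overlapped. It was -0.26 in ER-Hoxa9, where both WM-1119 libraries lay below both DMSO libraries. RARS2 is given because all its pairs in one line and both groups in the other lay wholly on opposite sides. In all, 11 of the 36 members had opposite signs in the lines, and PARS2 lay further apart, at -0.21 and 0.38, with MOLM-13 pairs that were not all on 1 side. Under median-of-ratios scaling the MOLM-13 value of RARS2 was 0.02. The difference between the lines was not tested.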

How the results depend on the processing

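The number of members called stayed at 0 in both lines under every alternative run. With the replicate block it was 0 in MOLM-13 and 0 in ER-Hoxa9, where the lowest adjusted p with limma was 0.195. Same-numbered ER-Hoxa9 libraries correlated at 0.21 over only 2 numbers, and the labels do not say what these libraries share. The replicate block changed no adjusted call. In ER-Hoxa9 it left 2 members, Nars and Wars, at an unadjusted p under 0.05, both lower, and not Cars2, with 273 of 11362 genes lower and 1761 higher. In ER-Hoxa9 the cytosolic median log2 fold change of -0.00 was -0.15 with median-of-ratios scaling and -0.15 with the replicate block and that scaling. Leaving out a library in turn gave -0.134 to 0.058. The mitochondrial median of -0.01 was -0.14 with median-of-ratios scaling, -0.14 with the replicate block and that scaling, and -0.077 with ribosomal protein genes removed. Leaving out a library in turn gave cytosolic medians of -0.18 to -0.10 and mitochondrial medians of -0.15 to 0.20 in MOLM-13, and mitochondrial medians of -0.01 to 0.02 in ER-Hoxa9. Leaving out Lars2 was chosen after seeing the data. TPM hold no counts, so what depth limits is unknown. The SE of members in MOLM-13 had a median of 0.25 without and 0.08 with the replicate block.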

Other observations

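Synthetases fall into a pair of unrelated structural classes with different folds of the catalytic domain. In MOLM-13, 11 of 18 class I and 10 of 17 class II members had a negative log2 fold change, against 38.5% of all tested genes. The medians of the classes were -0.02 and -0.09. In ER-Hoxa9, 11 of 18 and 7 of 17 members were negative, against 28.1% of all tested genes, with class medians of -0.03 and 0.02. The classes cut across the cytosolic and mitochondrial sets. KARS was counted as class II, and EPRS, which joins an enzyme of each class, was left out.

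Other motifs were searched on both strands of the same promoter windows. CACGTG, the E-box bound by MYC and its relatives, occurred in 4 of the 30 matched members (IARS, CARS2, EARS2 and MARS2), against 10.9% of 15843 genes. GCATGCGC, the core bound by NRF1, a regulator of nuclear genes for mitochondrial proteins, occurred in MARS2 and YARS2, against 4.89% of genes. GAAANNGAA, a form of the interferon-stimulated response element, occurred in GARS, IARS, WARS and EARS2, against 9.22% of genes. These matches describe letters in the windows only.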
